A study of Homo sapiens with 8 samples.

Results

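MAP7 (ensconsin) and 9 relatives or partners on microtubules were followed after a hairpin against RING1B in A673 and SK-ES1, 2 established lines of Ewing sarcoma, a human bone and soft-tissue tumour. The set holds MAP7 and its paralogue MAP7D1, and the kinesin motor genes KIF21A, KIF21B, KIF5A, KIF5B, KIF5C, KIF1A, KIF1B and KIF3A. These 10 genes were listed by name and all 10 were measured, of 14884 genes named on the array. MAP7 lies on chromosome 6, MAP7D1, KIF21B and KIF1B on chromosome 1, KIF21A and KIF5A on chromosome 12, KIF5C and KIF1A on chromosome 2, KIF5B on chromosome 10 and KIF3A on chromosome 5. MAP7 and KIF21A were put on the list with their falls in SK-ES1 and A673 already known, so those 2 changes are described here and not tested. The 10 genes, the lists of other microtubule genes and the tests were all chosen with earlier results of these data known. The array values also decided between probe sets: where a gene had several, the one with the highest mean over the 8 arrays stood for it.

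Microtubules are the tracks along which kinesins carry vesicles, organelles and protein complexes. MAP7 proteins coat microtubules and are known to recruit and activate kinesin-1, whose heavy chains are KIF5A, KIF5B and KIF5C. KIF1A and KIF1B are kinesin-3 motors of vesicle precursors, KIF3A is a subunit of kinesin-2, which serves cilia and other cargo, and KIF21A and KIF21B are kinesin-4 motors known to restrain microtubule growth. In vertebrates, RING1B complexes (Polycomb repressive complex 1) are known to sit mostly at CpG-rich promoters.

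The 4 groups were A673 with the RING1B hairpin (shRING1B), A673 with a control hairpin against GFP (shGFP), SK-ES1 with shRING1B and SK-ES1 with shGFP, with 2 arrays each. Every group carries a hairpin. Total RNA was measured in bulk, so fewer cells of a type and less RNA per cell cannot be told apart, and the transcript of RING1B itself was not analysed here. The labels do not say whether the 2 arrays of a group stem from independent cultures. The p-values therefore refer to the spread among these arrays alone, and that spread may be technical. All values are log2 expression levels after RMA, a method that corrects background, equalises the arrays and combines the probes of a probe set. Changes are differences of log2 means from limma, a linear model fitted to all genes, and a gene is called where its p, adjusted for the 14884 genes by the Benjamini-Hochberg method, is under 0.05. The median of all probe sets on an array lay between 4.01 and 4.1. Of 10 listed Ewing sarcoma markers 6 were measured, CD99, NKX2-2, STEAP1, BCL11B, CCK and HES6, and all 6 lay above that median in every group. The 2 measured leukocyte and 3 endothelial markers were not above it in every group, while 3 of 4 epithelial markers were. Over the 4 epithelial markers the mean level was 5.63 in A673 shRING1B, 5.48 in A673 shGFP, 5.08 in SK-ES1 shRING1B and 4.85 in SK-ES1 shGFP. KRT18, at 9.39, 8.80, 6.78 and 6.42 in that order, differed most between the groups. EPCAM had 4.53, 4.68, 4.72 and 4.54, and KRT5 lay below the array median in each. Whether epithelial cells were present, or bear on the results below, was not tested.

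RefSeq promoter sequence (GRCh38.p14) was found for 8 of the 10 genes, all but KIF21B and KIF5A, and covers 250 bases before each annotated start. The sequences shown belong to the genes with the widest differences between groups. MAP7 has 4 annotated starts, and the upstream one and the next one downstream are given because their CpG content differs most; KIF21A has 1 start, and the CpG-richest of 3 is given for KIF1A. Capitals mark GGGCGG or its reverse complement CCGCCC, the GC box, and each sequence runs 5′ to 3′ along the minus strand, on which all 3 genes lie.

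MAP7 upstream start, chr6:136550423-136550672: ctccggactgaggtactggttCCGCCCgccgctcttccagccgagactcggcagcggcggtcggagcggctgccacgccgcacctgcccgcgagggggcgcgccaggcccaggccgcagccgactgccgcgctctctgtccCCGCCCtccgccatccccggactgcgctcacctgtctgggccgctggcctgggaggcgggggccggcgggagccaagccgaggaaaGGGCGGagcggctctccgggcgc
MAP7 inner start, chr6:136527145-136527394: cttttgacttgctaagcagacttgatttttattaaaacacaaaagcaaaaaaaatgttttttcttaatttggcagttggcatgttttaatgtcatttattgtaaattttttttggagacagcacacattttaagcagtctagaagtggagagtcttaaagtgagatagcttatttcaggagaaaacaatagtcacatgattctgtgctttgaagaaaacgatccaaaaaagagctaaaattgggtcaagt
KIF21A, chr12:39443121-39443370: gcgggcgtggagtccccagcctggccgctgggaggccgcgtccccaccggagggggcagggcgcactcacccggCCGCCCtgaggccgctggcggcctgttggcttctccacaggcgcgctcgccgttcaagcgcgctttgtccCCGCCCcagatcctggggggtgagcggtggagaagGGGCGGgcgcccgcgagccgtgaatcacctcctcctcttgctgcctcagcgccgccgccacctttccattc
KIF1A, chr2:240820220-240820469: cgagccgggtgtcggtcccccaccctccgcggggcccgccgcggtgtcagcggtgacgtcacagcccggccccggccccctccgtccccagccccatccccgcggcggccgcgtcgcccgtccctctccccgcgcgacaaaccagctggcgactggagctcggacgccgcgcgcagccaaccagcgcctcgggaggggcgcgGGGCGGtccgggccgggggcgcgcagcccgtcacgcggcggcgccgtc

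The upstream MAP7 start had 33 CpG dinucleotides in 250 bases, more than 91.9% of 35116 promoters, whereas the inner start had 1. KIF21A had 27 and this KIF1A start 44, against a median of 11 over all promoters. MAP7 and KIF21A aside, KIF1A and the remaining genes with a promoter sequence were called by limma in neither line with the RING1B hairpin. Of these MAP7D1 had 38, KIF5B 24 and KIF3A 22, while the starts of KIF1B had 31, 45 and 7 and those of KIF5C 2 and 23. Occupancy by RING1B was not measured. The GC box occurred 3 times at the upstream MAP7 start, 3 times at KIF21A and 1 time at this KIF1A start, and it is present in 42.6% of all promoters of this length. Searched on both strands, GGAAGGAA, a tandem of the GGAA unit that EWSR1-FLI1 is known to bind, was in none of the sequences of the 8 genes and in 3.06% of all promoters. CCGGAAGT, an ETS-type motif that can overlap it by its GGAA core, was likewise in none, and in 3.42% of all promoters. These are matches of letters, and which start the cells used was not measured.

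MAP7 stood high in a single group, SK-ES1 with the control hairpin. Its log2 level was 4.53 and 4.74 on the SK-ES1 shRING1B arrays, against 6.43 and 6.40 on the SK-ES1 shGFP arrays. It was 3.92 and 4.13 on the A673 shRING1B arrays, against 3.77 and 4.05 on the A673 shGFP arrays. The SK-ES1 shRING1B arrays therefore lay well below both SK-ES1 shGFP arrays yet still above all 4 A673 arrays, while the A673 groups overlapped each other and sat near the array median. The log2 change in SK-ES1 was -1.78 with a standard error of 0.138, a level 3.44-fold lower than under shGFP. In A673 it was 0.12 (95% interval -0.19 to 0.42, limma adjusted p = 0.71). The difference between these effects, SK-ES1 minus A673, was -1.90 ± 0.20 (SE), which rests on the change MAP7 was chosen for. Signal over background was not measured at the A673 level, so room for a fall there was not tested.

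MAP7D1, which shares the microtubule-binding and kinesin-recruiting role in mammalian cells, had all 8 of its values between 6.28 and 6.68. It had 6.58 and 6.51 in A673 shRING1B against 6.68 and 6.67 in A673 shGFP. In SK-ES1 it had 6.51 and 6.41 with shRING1B against 6.33 and 6.28 with shGFP. The shRING1B arrays were thus slightly lower in A673 and slightly higher in SK-ES1, by less than limma could call. The changes were -0.13 (95% interval -0.38 to 0.11, adjusted p = 0.566) and 0.15 (-0.09 to 0.40, adjusted p = 0.839). Both intervals exclude a change of the size seen for MAP7 in SK-ES1. The 95% interval of the difference of the MAP7D1 effects ran from -0.06 to 0.63 (adjusted p = 0.451).

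KIF21A gave the opposite layout: a similar level in 3 groups and a low one in A673 with the RING1B hairpin. KIF21A is a kinesin-4 that, with KANK proteins, is known to limit microtubule growth at the cell cortex. Its log2 level was 5.33 and 5.66 in A673 shRING1B, against 7.29 and 7.49 in A673 shGFP. SK-ES1 had 7.09 and 7.12 with shRING1B against 7.29 and 7.50 with shGFP. In A673 the shRING1B arrays lay far under the shGFP arrays, and the change was -1.89 with a standard error of 0.144, a 3.72-fold lower level. In SK-ES1 the 2 shRING1B arrays were also below both shGFP arrays, by a smaller step of -0.29 (95% interval -0.62 to 0.03) that limma did not call (adjusted p = 0.717). The difference of the effects, SK-ES1 minus A673, was 1.60 ± 0.20 (SE), again resting on the change KIF21A was chosen for. Under shGFP the lines overlapped, with a difference of 0.01 (95% interval -0.31 to 0.33).

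KIF21B, the paralogue of KIF21A best known from neurons and lymphocytes, had values on opposite sides of the control in the 2 lines. It had 4.56 and 4.76 in A673 shRING1B against 5.23 and 5.05 in A673 shGFP, and 4.51 and 4.44 in SK-ES1 shRING1B against 4.01 and 4.16 in SK-ES1 shGFP. Neither pair of groups overlapped. The log2 changes were -0.48 ± 0.13 in A673 and 0.39 ± 0.13 in SK-ES1 (SE), with unadjusted p-values of 0.00358 and 0.0113. Neither passed limma's adjustment over all genes (adjusted p = 0.0712 and 0.535), nor did their difference of 0.87 ± 0.18 (adjusted p = 0.0611). When only the 10821 genes with a mean above the median of all probe sets were tested, the A673 change and the difference passed (adjusted p = 0.0422 and 0.0326). Its level in SK-ES1 shGFP was at the array median, where signal over background was not measured.

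**Figure D1:**
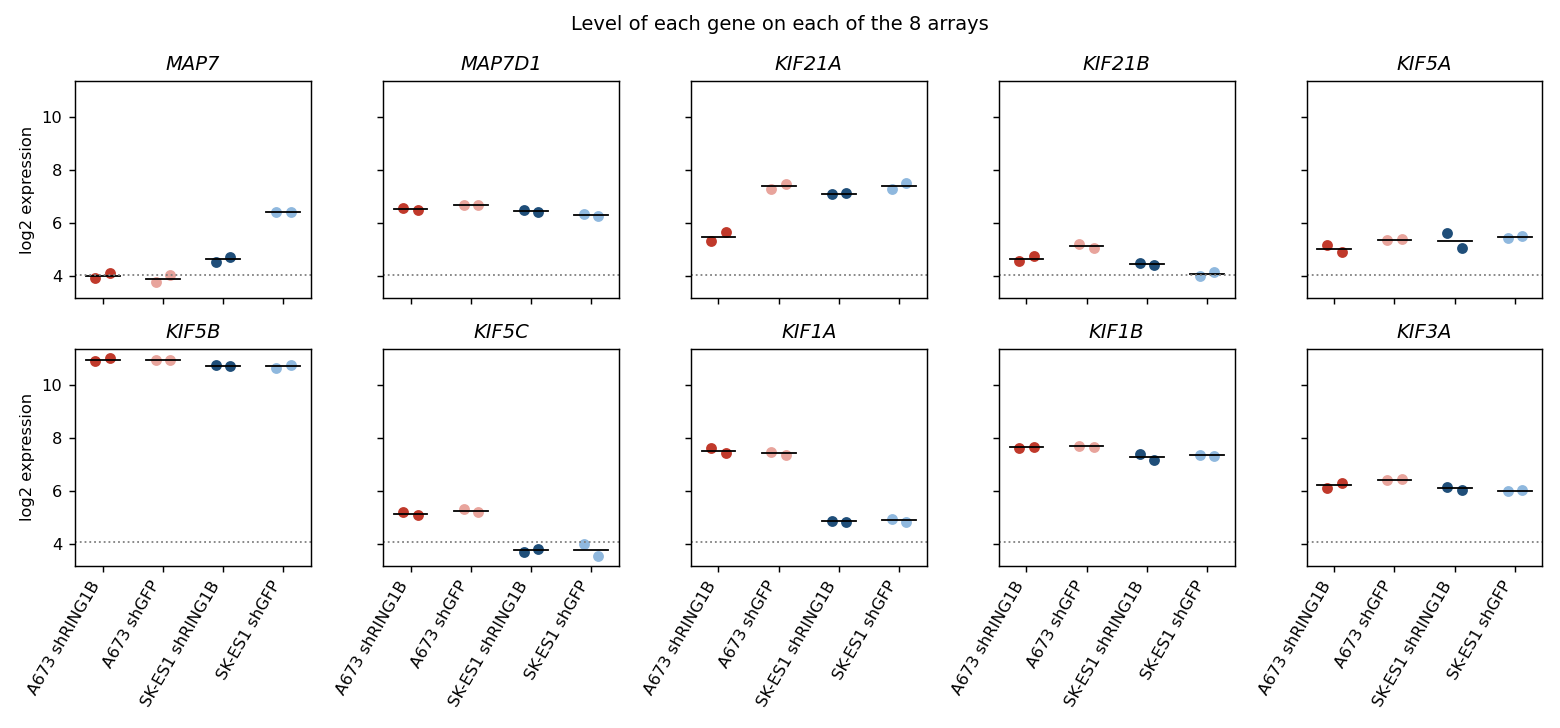
Log2 expression of the 10 genes on each of the 8 arrays (points), by group along the horizontal axis, with the mean of 2 arrays (bar) and the mean array median (dotted line). MAP7 is high in SK-ES1 shGFP, with 6.43 and 6.40, KIF21A is low in A673 shRING1B, with 5.33 and 5.66, and KIF1A and KIF5C separate the lines.

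The kinesin-1 heavy chains, which MAP7 proteins activate, were not called with the RING1B hairpin in either line. KIF5B, the heavy chain of most tissues, had 10.89 and 10.99 in A673 shRING1B against 10.92 and 10.92 in A673 shGFP. In SK-ES1 it had 10.74 and 10.71 with shRING1B against 10.64 and 10.74 with shGFP. The groups overlapped in both lines, and the changes were 0.02 (95% interval -0.22 to 0.27, adjusted p = 0.937) and 0.03 (-0.21 to 0.27, adjusted p = 0.977). KIF5C, a heavy chain enriched in neurons, had 5.19 and 5.07 in A673 shRING1B against 5.31 and 5.19 in A673 shGFP, a change of -0.12 (95% interval -0.46 to 0.21). In SK-ES1 it lay below the array median with either hairpin, at 3.68 and 3.80 with shRING1B against 3.98 and 3.54 with shGFP. KIF5A, the other neuron-enriched heavy chain, had the widest gap between 2 arrays of a group among the 10 genes, in SK-ES1 shRING1B. It had 5.18 and 4.91 in A673 shRING1B against 5.36 and 5.39 in A673 shGFP, and 5.61 and 5.05 in SK-ES1 shRING1B against 5.44 and 5.53 in SK-ES1 shGFP. Its changes were -0.33 (95% interval -0.72 to 0.06, adjusted p = 0.35) and -0.15 (-0.54 to 0.24, adjusted p = 0.914). The 3 heavy chains share sequence, so the value of a single one is uncertain to the extent that its probes match another.

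The kinesin-3 and kinesin-2 genes were not called either. KIF1A, a carrier of synaptic vesicle precursors, had 7.60 and 7.41 in A673 shRING1B against 7.48 and 7.35 in A673 shGFP, and 4.85 and 4.84 in SK-ES1 shRING1B against 4.95 and 4.83 in SK-ES1 shGFP. Both pairs overlapped, with changes of 0.09 (95% interval -0.17 to 0.36) and -0.04 (-0.31 to 0.22). KIF1B, a carrier of mitochondria and vesicle precursors, had 7.63 and 7.64 in A673 shRING1B against 7.70 and 7.66 in A673 shGFP, and 7.38 and 7.18 in SK-ES1 shRING1B against 7.34 and 7.32 in SK-ES1 shGFP. Its changes were -0.05 (95% interval -0.30 to 0.21) and -0.06 (-0.31 to 0.20). A second, dimmer probe set of KIF1B changed by 0.02 in A673 and by -0.24 in SK-ES1. KIF3A, a kinesin-2 subunit needed to build cilia, had 6.10 and 6.30 in A673 shRING1B against 6.39 and 6.46 in A673 shGFP. In SK-ES1 it had 6.14 and 6.04 with shRING1B against 5.997 and 6.009 with shGFP. The shRING1B arrays of KIF3A were lower in A673 and higher in SK-ES1, by -0.22 (95% interval -0.48 to 0.03, adjusted p = 0.338) and 0.09 (-0.17 to 0.35, adjusted p = 0.928).

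Over the 10 genes, limma called 1 in A673, KIF21A, where 3.74% of all genes were called, and 1 in SK-ES1, MAP7, where 0.0672% were called. Both were known when the list was made, so these counts say nothing about the list. The median change of the 10 was -0.128 in A673, against 0.0118 over all genes, and -0.0309 in SK-ES1, against -0.0039. In A673 the arrays of the 2 hairpins did not overlap for 7 of the 10, all 7 lower with shRING1B. Over all genes 49.9% did not overlap there, with 23.9% lower and 26% higher. In SK-ES1 the arrays did not overlap for 5 of the 10, 2 lower and 3 higher. Over all genes it was 37.2%, with 19.3% lower and 17.8% higher. The 7 include KIF21A and the 2 include MAP7, each listed for that fall, and limma called no other of these changes. For the difference between the lines, 2 of the 10 were called, MAP7 and KIF21A, against 0.786% of all genes. That count rests on the changes both were chosen for, and it was 0 or 1 in 4 of the 8 fits with an array left out: 0 without either SK-ES1 shRING1B array, and 1 without A673 shGFP replicate 2 or SK-ES1 shGFP replicate 1. The count over all genes was 0 to 72 in the 8 fits.

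**Figure D2:**
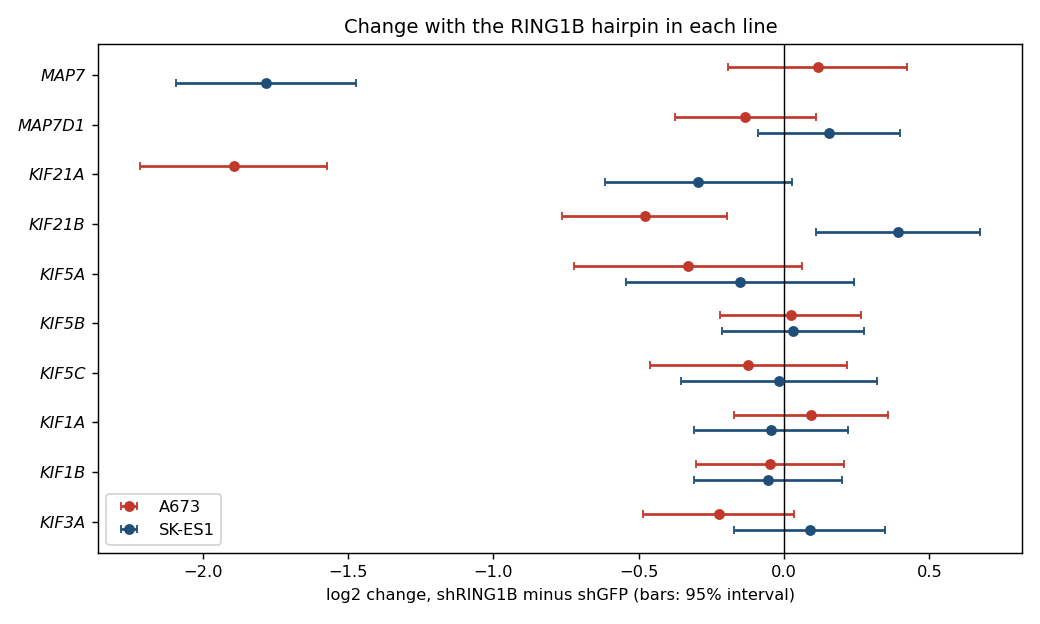
Log2 change, shRING1B minus shGFP, of each gene in A673 (red) and SK-ES1 (blue), with the 95% interval of the limma fit. MAP7 at -1.78 in SK-ES1 and KIF21A at -1.89 in A673 stand apart from the other values, which lie between -0.48 and 0.39.

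More of the 10 genes were called between the lines than between the hairpins, as over all genes. Under shGFP, limma called 7 of the 10 between SK-ES1 and A673, 6 lower and 1 higher in SK-ES1, where 30.7% of all genes were called. The arrays did not overlap for 9 of the 10, 7 lower and 2 higher in SK-ES1, against 64.8% of all genes, with 32.6% lower and 32.3% higher. KIF1A was 5.74-fold lower in SK-ES1, with a log2 difference of -2.52 ± 0.12 (SE, adjusted p = 1.97e-07), and it kept this gap with shRING1B, where the levels were 4.85 and 4.84 in SK-ES1 and 7.60 and 7.41 in A673. KIF5C was lower in SK-ES1 by -1.49 ± 0.15 on the log2 scale (adjusted p = 4.38e-05), and KIF21B by -1.06 ± 0.13 (adjusted p = 0.000135). MAP7 was the member that was higher, by 2.51 ± 0.14. The lower group of these 3 genes lay at or below the array median, at means of 3.76 for KIF5C and 4.08 for KIF21B in SK-ES1 and 3.91 for MAP7 in A673. Signal over background was not measured there, so these differences are of RMA values and no fold is given. The SK-ES1 shGFP arrays in the MAP7 difference are those from which its fall was measured, so it is given as a description.

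The calls of 3 smaller line differences were lost when arrays were omitted or all probe sets adjusted together, with the differences about as large. KIF3A was lower in SK-ES1 by -0.42 ± 0.12 (adjusted p = 0.02), MAP7D1 by -0.37 ± 0.11 (adjusted p = 0.0265) and KIF1B by -0.35 ± 0.11 (adjusted p = 0.0425). Each of these 3 lost its call when any 1 of the 4 shGFP arrays was omitted, and the adjusted p was then 0.0636 to 0.113 for KIF3A, 0.0775 to 0.119 for MAP7D1 and 0.126 to 0.163 for KIF1B. The differences in those fits were -0.455 to -0.386 for KIF3A, -0.399 to -0.344 for MAP7D1 and -0.369 to -0.33 for KIF1B. An omitted array leaves 1 in its group, whose spread is then assumed to be that of the other groups, here and wherever an array is left out. KIF1B is the member with a second named probe set, whose mean level was 5.10 against 7.48 for the one used. That probe set differed by 0.0774 between the lines, and with the mean of both the KIF1B difference was -0.136 (adjusted p = 0.419). KIF5B at -0.23 (95% interval -0.47 to 0.01, adjusted p = 0.147) and KIF5A at 0.11 (-0.28 to 0.50, adjusted p = 0.692) were not called, and KIF5B passed with a trended, robust variance model (adjusted p = 0.017).

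**Figure D3:**
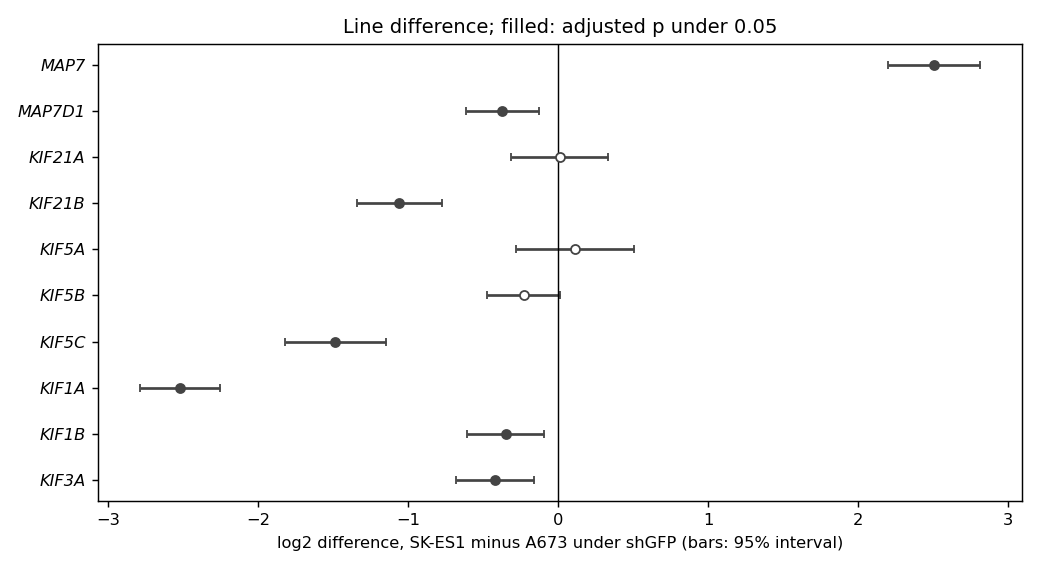
Log2 difference, SK-ES1 minus A673 under the control hairpin, of each gene with its 95% interval; filled points passed an adjusted p of 0.05. KIF1A at -2.52 and MAP7 at 2.51 lie at the opposite ends.

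Other microtubule genes were read from 8 lists, of which the tubulins were not analysed here. The lists were written with earlier results of these data known, so calls within them are not independent support. Of 22 measured MAP7-family and other microtubule-associated genes, limma called 0 higher and 2 lower in A673, where 3.74% of all genes were called, and 0 higher and 1 lower, MAP7 itself, in SK-ES1, where 0.0672% were. In A673 12 of the 22 changes were above 0 and 10 below, and in SK-ES1 8 were above and 14 below. The median changes were 0.0546 and -0.0256. DCX, doublecortin of migrating neurons, had 3.65 and 3.61 in A673 shRING1B against 4.36 and 4.47 in A673 shGFP (-0.78 ± 0.13, adjusted p = 0.0111). In SK-ES1 it had 3.63 and 3.38 with shRING1B against 3.04 and 3.24 with shGFP, and the difference of the effects was 1.15 ± 0.18 (adjusted p = 0.0265). The A673 call of DCX was lost without A673 shGFP replicate 2, with the change at -0.73 (adjusted p = 0.126), and that of the difference without any 1 of the 8 arrays, with the difference at 1.03 to 1.27 (adjusted p = 0.0552 to 0.145). DCX lay below the array median in every group but A673 shGFP and was not among the genes tested with the filter on dim genes. MAP7D2, a MAP7 paralogue of neural tissue, had 6.73 and 6.91 in A673 shRING1B against 7.23 and 7.70 in A673 shGFP (-0.65 ± 0.15, adjusted p = 0.0486). In SK-ES1 it had 5.28 and 5.30 with shRING1B, also below the 5.51 and 5.48 with shGFP. Limma called neither that change of -0.21 (adjusted p = 0.849) nor the difference of the effects, 0.44 ± 0.22 (adjusted p = 0.413). Its call was lost in 11 of 16 alternatives, among them the fit without A673 shGFP replicate 2, where the change was -0.415 (adjusted p = 0.338).

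The clearest further fall was that of FIGN, fidgetin, an enzyme of the microtubule-severing family. It had 4.19 and 4.31 in A673 shRING1B against 5.49 and 5.49 in A673 shGFP, and 5.20 and 5.13 in SK-ES1 shRING1B against 5.13 and 5.25 in SK-ES1 shGFP. The A673 groups were far apart and the SK-ES1 groups overlapped. The mean of 4.25 in A673 shRING1B lay little above the array median of 4.04. Signal over background was not measured there, so the fold below is of RMA values. The list that holds FIGN was written with earlier results of these data known, so its call is a description. The A673 change was -1.24 ± 0.11 (SE, adjusted p = 0.000632), a 2.36-fold lower level, and it was called in all 16 alternatives. The difference of the effects was 1.21 ± 0.16 (adjusted p = 0.0135), and it was not called without A673 shGFP replicate 2 (0.0834), SK-ES1 shGFP replicate 1 (0.0668), SK-ES1 shRING1B replicate 1 (0.0835) or SK-ES1 shRING1B replicate 2 (0.0723), though over the 8 such fits it stayed between 1.15 and 1.28. FIGN was the 1 called gene of 19 measured tubulin-modifying and severing enzymes in A673, and limma called 0 of them in SK-ES1, where 0 passed an unadjusted p of 0.05.

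In the other lists limma called no gene with the RING1B hairpin, the listed members aside. Of the 16 genes outside the set that were listed as transport kinesins, 0 were called in A673 and 0 in SK-ES1. In these lines 4 and 0 had an unadjusted p under 0.05. That list also holds KIF7, KIF19, KIF25, KIF26A and KIF26B, and the carrier role of its members was not examined. Across all genes 3.74% and 0.0672% were called, and 18.9% and 7.36% had an unadjusted p under 0.05 in A673 and SK-ES1. KIF3C, a kinesin-2 motor, stood at 0.51 in A673 (adjusted p = 0.0652) and KIF16B, an endosomal kinesin-3, at -0.60 (adjusted p = 0.0796). Of 16 genes listed as mitotic kinesins 0 were called in either line, with 2 and 0 at an unadjusted p under 0.05. KIF15 stood at -0.29 and KIF2A at -0.26 in A673. Of 20 kinesin light chains and cargo adaptors 0 were called, with 8 and 2 at that unadjusted p. Among them were the light chain KLC4 at -0.53 and the adaptor GRIP1 at -0.62 in A673 (limma adjusted p = 0.0704 and 0.0689). GRIP1 had a mean of 3.87 in A673 shRING1B, below the array median of 4.04, where signal over background was not measured. Of 16 dynein and dynactin genes 0 were called, with 2 and 0 at that p; the dynactin subunit DCTN3 stood at 0.45 and the dynein adaptor HOOK1 at 0.38 in A673. Of 16 plus-end and cortical genes 0 were called, with 4 and 1 at that p. These include the KIF21 partner family, where KANK2 stood at 0.44 in A673, and the neuron navigator NAV2 at -0.49 (adjusted p = 0.101 and 0.0574). With only genes above the median of all probe sets tested, KIF3C, KIF16B, KLC4, GRIP1, DCTN3 and NAV2 passed in A673 (adjusted p = 0.0383, 0.0488, 0.0422, 0.0417, 0.0404 and 0.0327), and a trended, robust variance model called these except NAV2, and also HOOK1 (0.00864) and KANK2 (0.0206). KIF16B was also called without A673 shGFP replicate 1 (-0.834, adjusted p = 0.0437) and KLC4 without A673 shRING1B replicate 2 (-0.718, adjusted p = 0.0383).

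**Figure D4:**
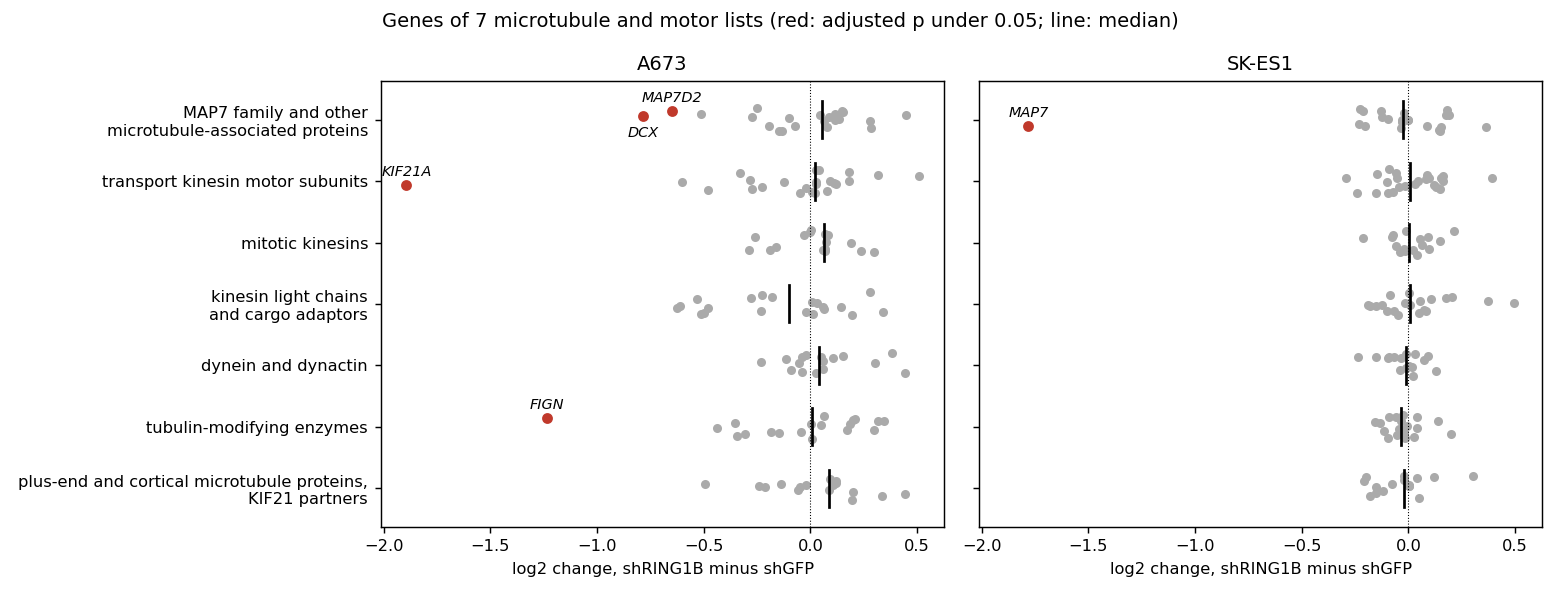
Log2 change, shRING1B minus shGFP, of every measured gene of 7 lists in A673 (left) and SK-ES1 (right), with called genes in red and the list median as a bar. KIF21A, FIGN, DCX and MAP7D2 are called in A673 and MAP7 in SK-ES1, and all 7 medians lie between -0.0998 and 0.0898.

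Between the lines under shGFP, the widest differences among the microtubule-associated genes ran in both directions. MAPT, the axonal protein tau, was higher in SK-ES1 by 3.07 ± 0.12 (adjusted p = 6.4e-08), while the doublecortin-like kinase DCLK1 was lower by -2.92 ± 0.15, with SK-ES1 values of 2.92 and 2.82 below the array median, and MAP1B, a protein of growing axons, by -2.48 ± 0.12. Of the 22 microtubule-associated genes 4 were higher and 11 lower in SK-ES1. Of 24 genes listed as transport kinesins, the 8 in the set included, 2 were higher and 7 lower, among the others KIF1C at -1.20 (limma adjusted p = 0.000118). Of 16 dynein and dynactin genes 0 were higher and 6 lower, with NDEL1, a dynein regulator, at -1.05, DCTN6 at -0.60 and NDE1 at -0.59. Of 16 plus-end and cortical genes 1 was higher and 10 lower, with the microtubule polymerase CKAP5 at -1.39, NAV1 at -1.22 and the spectraplakin MACF1 at -1.07. Of 16 genes listed as mitotic kinesins 1 was higher, KIF15 at 0.95, and 7 were lower, KIF14 at -0.74 and KIF24 at -0.62 among them. The KIF24 call was lost in 2 of 16 alternatives, and over all 16 its difference was -0.709 to -0.531. Of 19 tubulin-modifying enzymes 1 was higher, the detyrosinating VASH1 at 0.95, and 6 lower, with its partner SVBP at -1.33 and the acetyltransferase ATAT1 at -0.94. Of 20 light chains and adaptors 2 were higher, HAP1 at 1.18 and SYBU (syntabulin) at 1.12, and 4 lower, with MADD at -0.67. Across all genes 17% were called lower and 13.7% higher. Over the alternatives the difference was 0.557 to 0.985 for VASH1 and -1.24 to -0.82 for NAV1.

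The genes whose profile over the 8 arrays was nearest to that of MAP7 were CEACAM5, GRPR, IFI44, CUBN and SP100. Nearness was the root-mean-square difference of log2 values after centring each gene on its own mean, over 11915 protein-coding genes. It was 0.315 for CEACAM5, 0.327 for GRPR, 0.381 for IFI44, 0.415 for CUBN and 0.444 for SP100, where MAP7's own root-mean-square deviation was 1.01. The SK-ES1 changes of these 5 genes ran from -2.30 for GRPR to -0.82 for CUBN, and their levels under shGFP were higher in SK-ES1 than in A673 by 1.43 (SP100) to 2.33 (IFI44). Nearest to KIF21A were DZIP1 (0.237), KLHL4 (0.263), SUSD5 (0.296), SELENBP1 (0.296) and NUP62CL (0.307), where KIF21A's own deviation was 0.797. Their A673 changes ran from -1.71 for DZIP1 to -1.13 for SUSD5, and their SK-ES1 changes from -0.56 for SELENBP1 to -0.04 for DZIP1. These 10 genes were chosen for their likeness on the same 8 arrays, so their values are a description.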

How the data were processed

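Total RNA (30 ng per array, per the labels' protocols) was measured on 8 arrays. The deposited values are log2 expression per probe set, made by the authors with RMA, and limma is also named, per the submitters' processing notes; versions, array annotation and genome build are not given in the sources used here. Of 48144 probe sets, 16098 had 1 gene symbol, 0 several and 32046 were unnamed here; they gave 14884 genes, 1 probe set each, the one with the highest mean. Scanner files were not used here. Precision is limited by having 2 arrays per group, and 0 pairs of arrays were identical.

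Groups come from the cell line and treatment in the labels; replicate numbers only name an array. A model with 4 group means was fitted to all genes with limma 3.58.1 in R 4.3.3 (4 residual and 6.003 prior degrees of freedom, two-sided), with Benjamini-Hochberg adjustment across all 14884 genes. A gene is called at an adjusted p under 0.05. The contrasts were shRING1B minus shGFP in each line, their difference, and SK-ES1 minus A673 under shGFP. The script was tested on simulated data. Values with ± are changes and standard errors of the model. Lists were described by counts and medians. Of each list the text names genes called with the RING1B hairpin or, with none, the 2 with the smallest p, and up to 3 called line differences; promoters were taken from RefSeq. The 10 genes, the lists and the tests were chosen with earlier results of these data known. Alternatives varied the normalization, the filter on dim genes, the probe set, the features tested, the variance model and the arrays. Those for genes outside the 10 were chosen after seeing the data.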

Additional observations from a re-analysis of the deposited data

Results flagged for a closer look

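The effect of the RING1B hairpin differed between the lines for 2 of the 10 genes by the interaction term of the limma fit. For MAP7 the effect in SK-ES1 minus that in A673 was -1.9 (log2), with both SK-ES1 shRING1B arrays below the SK-ES1 shGFP arrays and overlapping groups in A673. For KIF21A it was 1.6, with the shRING1B arrays below the shGFP arrays in both lines and the larger step in A673. Both genes were listed with their falls known, so the differences are descriptions. The level of RING1B's own transcript was not analysed here, so unequal depletion and unequal response cannot be told apart. MAP7 had a mean of 3.91 in A673 shGFP, below the array median of 4.05. Signal over background was not measured there, so whether MAP7 could show a fall in A673 was not tested.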

How the results depend on the processing

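With 1 array left out its group has 1 array, assumed to vary like the other groups. As a description, the changes these genes were chosen for were then -2.06 to -1.73 for KIF21A in A673 and -1.88 to -1.68 for MAP7 in SK-ES1. The number of the 10 genes called was 2 in A673 with only genes above the median of all probe sets. For the line difference it was 4 with all probe sets tested together and 4 to 7 with 1 array left out. For the difference of the effects it was 0 to 2 with 1 array left out: 0 without either SK-ES1 shRING1B array, and 1, MAP7, without A673 shGFP replicate 2 or SK-ES1 shGFP replicate 1. Counts over all genes moved more. Against 557 in A673, 10 in SK-ES1, 117 for the difference and 4572 between the lines, the trended, robust variance model gave 1052, 34 and 281. Testing only genes above the median gave 21 in SK-ES1 and 185 for the difference, testing all probe sets gave 4, 60 and, between the lines, 7224, centring on medians gave 16 in SK-ES1, and the 4 A673 arrays alone gave 213. With 1 array left out the counts were 101 to 434 in A673, 2 to 7 in SK-ES1 and 0 to 72 for the difference, the 0 without SK-ES1 shRING1B replicate 1. The cause was not tested, except that fewer arrays or other numbers of features enter by construction.

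Signs turned for changes near 0 that limma did not call. With quantile normalization repeated, cyclic loess and median centring the difference of the effects of KIF5B was -0.0686, -0.0416 and -0.0381, and that of KIF1B was 0.0166 and 0.0038 with the first 2; the SK-ES1 change of KIF5B was -0.00593 with median centring. With 1 array left out, values crossed 0 in A673 for MAP7 (-0.0244 to 0.255) and KIF5B (-0.0271 to 0.0713), and in SK-ES1 for KIF5A (-0.432 to 0.129), KIF5B (-0.0168 to 0.0794), KIF5C (-0.24 to 0.205), KIF1A (-0.105 to 0.016), KIF1B (-0.159 to 0.0469) and FIGN (-0.0854 to 0.0405). The difference of the effects crossed 0 for KIF5A (-0.1 to 0.461), KIF5B (-0.04 to 0.0583), KIF5C (-0.117 to 0.328) and KIF1B (-0.11 to 0.0956), and the line difference for KIF21A (-0.096 to 0.115). No paired analysis was possible because the labels give no replicate numbers. The comparison within 4 arrays could not be run for the difference of the effects, which needs all 8. Signal over background was not measured.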
